A study of Arabidopsis thaliana with 12 samples.

Results

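In Arabidopsis thaliana, transcripts of 4 enzymes of amino acid and sulfur metabolism were followed: AT-HF (locus AT4G26900), AT3G23940, APS4 (AT5G43780) and ETFQO (AT2G43400). They were the probes whose platform annotation named exactly 1 gene, that gene being 1 of these 4, out of 691 genes named in this way and 3439 probes on the array. Each gene had 1 probe. The locus names place the genes on chromosomes 4, 3, 5 and 2. RNA came from an aap6 mutant of the ecotype Wassilevskija, labelled as lacking the amino acid transporter AAP6 of the xylem parenchyma, and from WT plants of the same ecotype. Each genotype had 6 arrays, numbered 1 to 6. The mutant allele, tissue, plant age, growth conditions and kind of array are not given in the sources used here.

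Histidine and the branched-chain amino acids valine, leucine and isoleucine are made in the plastid. Sulfate is activated by ATP sulfurylase before it is reduced and built into cysteine and methionine. When carbon is short, branched-chain amino acids and lysine can be broken down in mitochondria, and their electrons enter the respiratory chain through the electron transfer flavoprotein and ETFQO. AAP6 is a plasma membrane importer of amino acids. No amino acid permease had a probe of its own, so the genotype labels could not be checked against the mutated gene.

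The deposited intensities were linear, from 0 to 100, and the array medians were 0.234 to 0.265 in aap6 and 0.142 to 0.164 in WT. This general difference was uneven. Among the 645 dimmest of the 2579 probes tested, the median log2 change as deposited was 0.86, and among the 645 brightest it was 0.034. The changes below are therefore from quantile-normalized log2 intensities (aap6 minus WT), on which the median change of all probes was -0.03, with the deposited values beside them. Arrays 1 and 2, 3 and 4, and 5 and 6 of a genotype resembled each other and were averaged, giving n = 3 samples per genotype. Whether the array numbers mark separate plants is not stated, and the p-values cover only the spread among these samples, possibly a technical one. Precision is limited by the number of arrays.

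Of the 4 genes, AT-HF passed the test and was higher in aap6, and the other 3 did not pass (limma over all probes, Benjamini-Hochberg adjusted p under 0.05). Over all tested probes, 5.7% passed as higher and 3.06% as lower in aap6, together 8.76%. A single gene among 4 is too few to be set against those shares. The arrays measured RNA of whole samples, in which fewer cells of a type and less RNA per cell cannot be told apart.

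**Figure D1:**
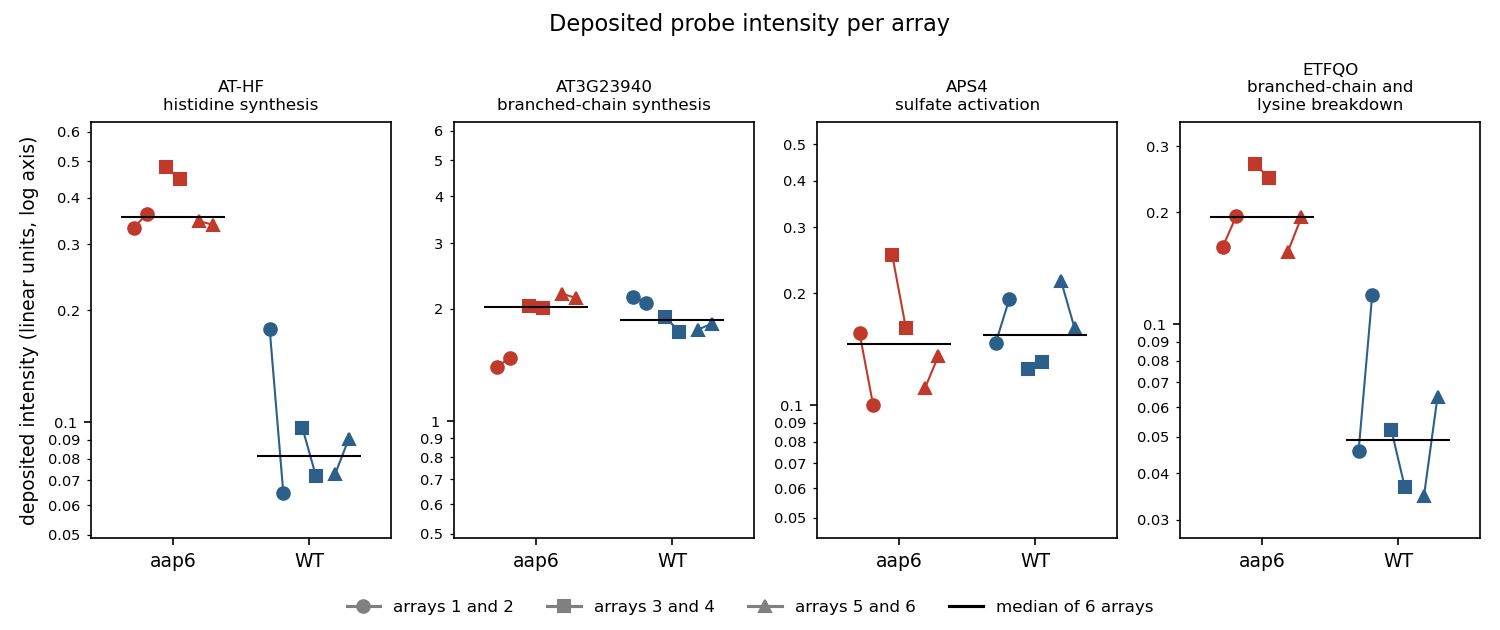
Deposited probe intensity (linear units on a log axis, every panel spanning the same fold range) of the 4 genes in the 6 aap6 arrays (red, left) and the 6 WT arrays (blue, right). Lines join the arrays that were averaged and the black bar is the median of 6 arrays. AT-HF and ETFQO lie higher in every aap6 array than in any WT array, and the genotypes overlap for AT3G23940 and APS4. On this scale, where aap6 arrays are brighter in general, 25.9% of probes lie higher in the same way. After normalization the genotypes overlap for ETFQO as well.

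AT-HF encodes the bifunctional plastid enzyme, a glutamine amidotransferase joined to a cyclase, that forms the imidazole ring during histidine synthesis. Its deposited intensity ran from 0.332 to 0.482 in the aap6 arrays (median 0.354), against 0.0648 to 0.178 in the WT arrays (median 0.0814). Every aap6 array was above every WT array, which held for 25.9% of probes in this direction on the deposited scale. The highest WT value belonged to array 1. Its partner, array 2, had the lowest. After normalization the genotypes still did not overlap, as for 7.56% of probes in this direction. The averaged samples had a log2 intensity of -1.66 ± 0.25 in aap6 and -2.98 ± 0.32 in WT (SD, n = 3 each). AT-HF thus rose by 1.32 ± 0.23 (SE) on the log2 scale, or 2.49-fold (95% interval of the log2 change 0.78 to 1.85, limma adjusted p = 0.0181). Of all tested probes, 2.91% had a larger rise.

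AT-HF passed under each of the 3 scalings. As deposited, where all probes together had a median change of 0.50, the log2 change was 2.08 (limma adjusted p = 0.0007, where 34.1% of probes passed as higher). With median centring of the arrays, where that median was -0.23, it was 1.36 (limma adjusted p = 0.00851, where 7.75% passed as higher). As deposited, AT-HF lay 1.36 above the median of tested probes of like brightness (the same 25% of them, dim to bright), of which 1.71% had a larger change. The call was lost without WT array 2, where the log2 change was 1.11 (limma adjusted p = 0.0852). It was also lost, with changes of like size, without aap6 arrays 1 and 2 (1.35, limma adjusted p = 0.067), without aap6 arrays 3 and 4 (1.18, limma adjusted p = 0.077) and without WT arrays 3 and 4 (1.26, limma adjusted p = 0.0657). Calls over all probes fell to 69, 55 and 87 in those 3 settings, against 226 with all samples.

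AT3G23940 encodes dihydroxyacid dehydratase, the iron-sulfur enzyme of a step shared by valine, isoleucine and leucine synthesis. It was the brightest of the 4 probes, brighter than 90.5% to 93.6% of the probes on each array. Its deposited intensity ran from 1.40 to 2.20 in aap6 (median 2.02), against 1.74 to 2.16 in WT (median 1.87). The genotypes overlapped. The 2 lowest of the 12 values were those of aap6 arrays 1 and 2, at 1.40 and 1.48, and the other aap6 arrays ran from 2.01 to 2.20. WT arrays 1 and 2 were the highest of their genotype.

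The normalized log2 intensity of AT3G23940 was 0.85 ± 0.28 in aap6 and 0.97 ± 0.13 in WT (SD, n = 3 each). The log2 change of -0.12 ± 0.20 (SE) did not pass (limma adjusted p = 0.741), and its 95% interval ran from -0.60 to 0.35. Without aap6 arrays 1 and 2 it was 0.041. As deposited it was -0.043. After median centring it was -0.77 and passed (limma adjusted p = 0.0311), as did 19.6% of probes in this direction. The brightest 25% of tested probes then had a median change of -0.69.

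The enzyme just before it in the same pathway, ketol-acid reductoisomerase (AT3G58610), was the one further gene of the branched-chain synthesis list with a probe of its own. Its deposited intensity ran from 0.214 to 0.304 in aap6 (median 0.285), against 0.128 to 0.255 in WT (median 0.183), so the genotypes overlapped. The normalized log2 change of -0.19 ± 0.21 (SE) missed the threshold (limma adjusted p = 0.605). As deposited the change was 0.51 and did not pass (limma adjusted p = 0.0796). It lay 0.21 below the median of tested probes of like brightness, which was 0.72, and 64.7% of those had a larger change. The 2 branched-chain enzymes measured thus both had normalized changes whose intervals included 0, from -0.66 to 0.29 for AT3G58610. Neither interval reached the rise of AT-HF.

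APS4 is one of the ATP sulfurylases, which join sulfate to ATP to form adenylyl sulfate at the start of sulfate assimilation. Its deposited intensity ran from 0.100 to 0.253 in aap6 (median 0.146), against 0.125 to 0.216 in WT (median 0.154). On this scale the genotypes covered nearly the same range, and the log2 change was -0.12 (limma adjusted p = 0.748). Most probes of like brightness were higher in aap6, however. In the dimmest 25% of tested probes, to which APS4 belonged, 92.2% had a change above 0 as deposited, and APS4 lay 0.98 below the median of those probes on the log2 scale.

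After normalization the log2 intensity of APS4 was -3.17 ± 0.42 in aap6 and -2.25 ± 0.27 in WT (SD, n = 3 each). The log2 change of -0.92 ± 0.26 (SE; 95% interval -1.53 to -0.31) did not pass (limma adjusted p = 0.0674), and 96.6% of tested probes had a change above it. Single arrays of the genotypes overlapped: aap6 array 3, at -2.34, was above WT arrays 3 and 4, at -2.59 and -2.52. APS4 was lower in aap6 at 5 of the 6 array numbers, array 3 being the exception. The share of all probes with such a pattern was not counted. The change passed without aap6 array 3, the highest of the aap6 arrays (-1.06, limma adjusted p = 0.0335), where 70 of 2579 probes passed as lower. Without its partner, aap6 array 4, the change did not pass (-0.81, limma adjusted p = 0.176). With median centring it passed (-0.85, limma adjusted p = 0.0399), as did 19.6% of probes in this direction. It also passed with the 12 arrays taken as 12 samples (limma adjusted p = 0.00992, where 15.8% of probes passed as lower). That setting counts possible technical repeats as separate samples.

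ETFQO passes electrons from the electron transfer flavoprotein to ubiquinone in the inner mitochondrial membrane. Its deposited intensity ran from 0.157 to 0.269 in aap6 (median 0.194), against 0.0347 to 0.120 in WT (median 0.0491). Every aap6 array was above every WT array on this scale, again as for 25.9% of probes. WT array 2, at 0.120, stood above the other WT arrays, of which the next had 0.0641. Across WT arrays the coefficient of variation was 54%, the widest of the 4 genes, and in aap6 arrays it was 22.3%.

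After normalization the log2 intensity of ETFQO was -2.67 ± 0.32 in aap6 and -3.59 ± 0.51 in WT (SD, n = 3 each). WT array 2, at -2.54, then lay within the aap6 range. The log2 change of 0.92 ± 0.30 (SE; 95% interval 0.23 to 1.62) did not pass (limma adjusted p = 0.0923), and 7.06% of tested probes had a larger one. It passed as deposited, at 1.71 (limma adjusted p = 0.0024), where 34.1% of probes passed as higher, and with median centring, at 0.98 (limma adjusted p = 0.027), where 7.75% did. Of the deposited change, 0.86 was the median of the dimmest 25% of tested probes, to which ETFQO belonged. ETFQO lay 0.85 above that median, and 7.13% of those probes had a larger change. In both settings 3 of the 6 WT values lay below the lower bound set on intensities (0.0505) and were raised to it. Without WT array 2, the highest of the WT arrays, the normalized change was 1.06 and passed (limma adjusted p = 0.0379). In that setting 125 of 2579 probes passed as higher. Without WT array 1, the partner of WT array 2, the change was 0.74 and did not pass (limma adjusted p = 0.265). Nor did it pass without aap6 arrays 3 and 4 (0.75, limma adjusted p = 0.267).

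**Figure D2:**
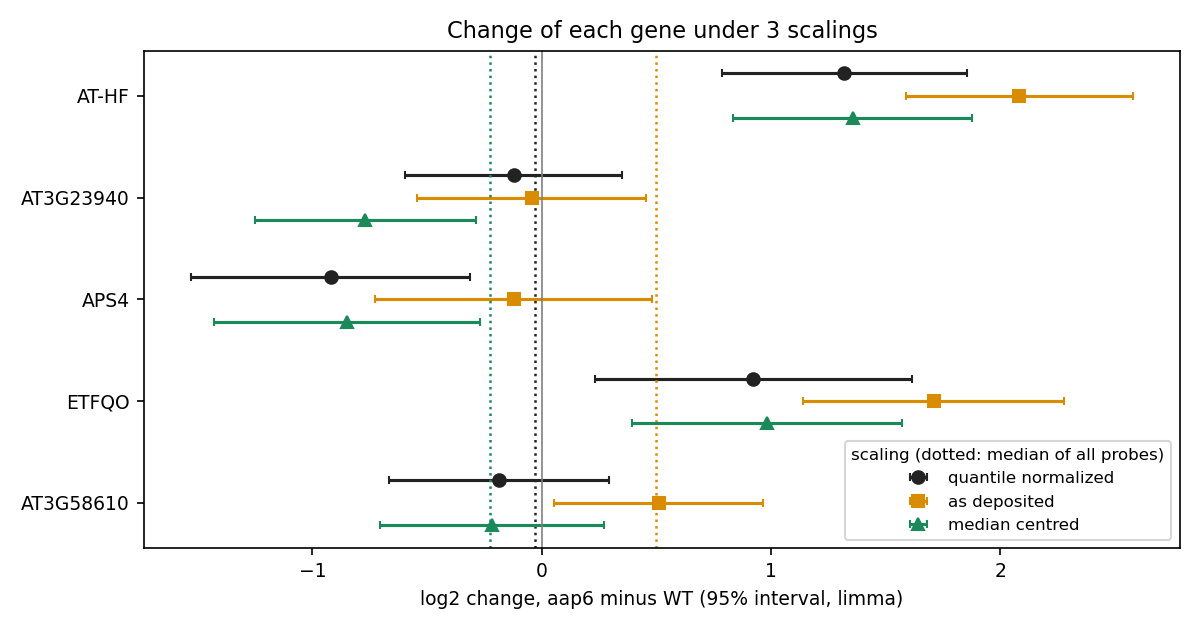
Log2 change (aap6 minus WT) with its 95% limma interval for the 4 genes and AT3G58610, after quantile normalization (black circles), as deposited (orange squares) and with median centring (green triangles). Dotted lines give the median change of all tested probes under each scaling, -0.03, 0.50 and -0.23, and AT-HF lies above all 3 lines under every scaling.

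**Figure D3:**
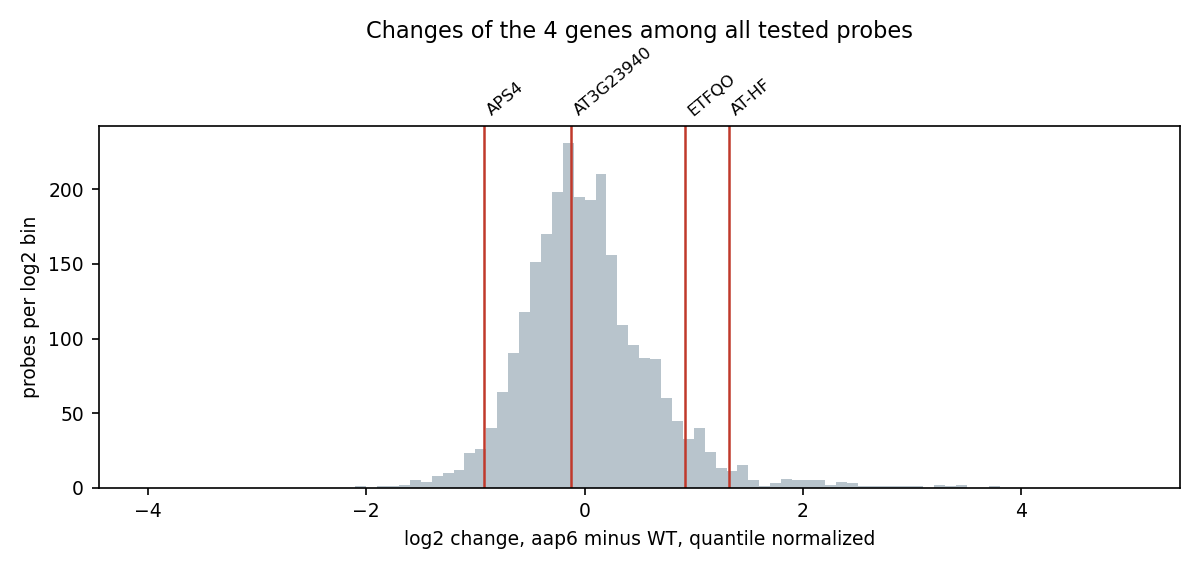
Distribution of the normalized log2 changes (aap6 minus WT) of the 2579 tested probes, as a histogram, with the 4 genes as red lines. AT-HF at 1.32 and ETFQO at 0.92 lie in the upper tail, APS4 at -0.92 in the lower tail and AT3G23940 at -0.12 near the centre.

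The synthesis genes were then compared with the breakdown gene. The estimated changes did not part synthesis and breakdown into opposite directions. AT-HF, of synthesis, had the largest positive change of the 4 genes. ETFQO, of breakdown, had the second largest, and AT3G23940, of synthesis, a change near 0. Neither ETFQO nor AT3G23940 passed, so whether the directions part is not settled. The change of ETFQO minus the mean change of AT-HF and AT3G23940 was 0.32 on the log2 scale. Over the 3 same-numbered pairs of averaged samples it was 0.14, 0.58 and 0.26 (SD 0.23). This value averages 2 unlike genes. The change of ETFQO minus that of AT-HF was -0.40 ± 0.20, and minus that of AT3G23940 it was 1.05 ± 0.29 (SD, n = 3 pairs), each with 1 sign in 3 of 3 pairs. These differences are a description of chosen genes, and no test was made of them. The value of 0.32 moved in both directions with the processing. A higher floor, the 25th percentile of all values, gave 0.14, an offset in place of the floor gave 0.17, and the deposited scale or median centring gave 0.69. Median centring shifts all probes of an array alike, so both scalings give the same value by construction. As deposited, probes of like brightness had a median change of 0.86 for ETFQO, 0.72 for AT-HF and 0.034 for AT3G23940. The value of 0.69 includes these unlike shifts. The normalized value was 0.046 without WT array 1 and 0.57 without WT array 2.

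After normalization APS4 stood farther from both genes with positive changes than AT3G23940 did. The change of AT-HF exceeded that of APS4 by 2.24 ± 0.50, and that of ETFQO exceeded it by 1.84 ± 0.54 (SD, n = 3 pairs). Each was positive in 3 of 3 pairs. Under the other scalings APS4 and AT3G23940 lay close together, at -0.12 and -0.043 as deposited and at -0.85 and -0.77 with median centring. Those scalings keep the uneven shift between dim and bright probes. Relative to the median deposited change of probes of like brightness, APS4 lay at -0.98 and AT3G23940 at -0.077.

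**Figure D4:**
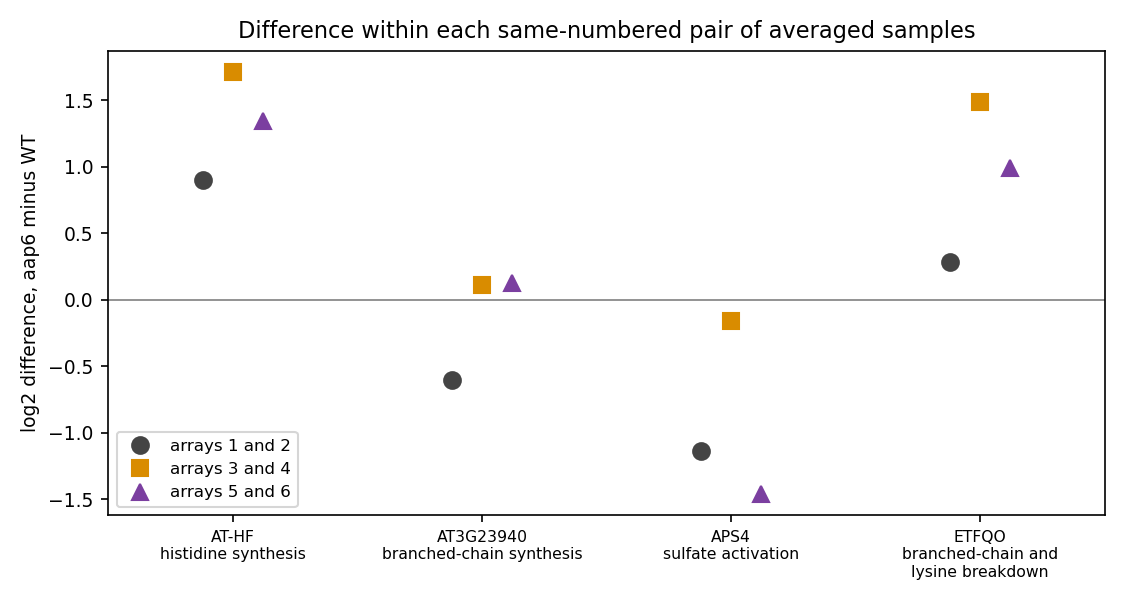
Normalized log2 difference, aap6 minus WT, of each gene within the 3 same-numbered pairs of averaged samples. AT-HF runs from 0.90 to 1.71 and ETFQO from 0.29 to 1.49, APS4 from -1.46 to -0.16, and AT3G23940 has -0.60 for arrays 1 and 2 against 0.11 and 0.13 for the others.

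The pairs of averaged samples differed from each other in a shared way for some of the genes. Arrays 3 and 4 gave the highest difference between the genotypes for AT-HF (1.71), ETFQO (1.49) and APS4 (-0.16). In aap6, the averaged sample of arrays 3 and 4 was the highest of the 3 for AT-HF, APS4 and ETFQO, and that of arrays 5 and 6 the lowest. In WT, arrays 1 and 2 gave the highest averaged sample for AT-HF (-2.62) and ETFQO (-3.01). Those 2 values had different origins, since array 1 was the high one for AT-HF and array 2 for ETFQO. Partner arrays of that sample differed by 1.19 for AT-HF and 0.95 for ETFQO on the log2 scale, against 0.054 for the bright probe of AT3G23940.

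Same-numbered samples of the 2 genotypes deviated together across probes, so the pairs were also used as a block. With them the count over all probes was 437 called in place of 226. AT-HF remained called (limma adjusted p = 0.0164), and 9.81% of probes passed as higher. ETFQO and APS4 still did not pass, with limma adjusted p-values of 0.0587 and 0.0696, nor did AT3G23940 (limma adjusted p = 0.683).

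The profiles of the 4 genes over the 12 arrays were set against those of 492 other tested probes with 1 gene name, each centred on its own mean. The root mean square difference of normalized log2 values served as the measure of likeness. Closest to AT-HF were AT3G50270 (0.32) and AT1G13370 (0.37), where the median probe differed from AT-HF by 0.87. Closest to AT3G23940 were AT3G57120 (0.091) and AT5G52530 (0.13). For APS4 they were AT1G24360 (0.31) and AT1G35510 (0.31), and for ETFQO AT3G56330 (0.36) and AT5G38310 (0.37). The median probe differed from AT3G23940 by 0.44, from APS4 by 0.68 and from ETFQO by 0.77. The arrays share genotype and numbering, so the likeness includes both.

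The rest of the pathways was largely out of reach. Of 11 genes of histidine synthesis, 1 had a probe of its own, AT-HF, which rose. Of 18 genes of branched-chain synthesis 2 did, AT3G23940 and AT3G58610, and neither passed. Of 23 genes of sulfate assimilation and cysteine synthesis 1 did, APS4, and of 17 genes of branched-chain and lysine breakdown 1, ETFQO, and neither passed. None of 8 amino acid permeases did. Over all tested probes the median normalized change was -0.03, and no change of a pathway can be read from 1 or 2 of its genes.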

How the data were processed

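The deposited intensities were linear, and the highest value was 100 on each of the 12 arrays. How the authors corrected background or scaled them is not given in the sources used here, and 10.5% of the 41268 values were 0, so scale and centring stay unknown. Probes were named by the platform annotation, with symbols brought up to date from the TAIR10.1 gene table by gene identifier (690 of 692 probes with 1 name matched, 870 probes had several names and 1877 were not listed). Probes with several names named no gene.

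Intensities were quantile normalized, given a lower bound, the 10th percentile of the positive values (0.0451 after normalization, 0.0505 as deposited), and log2 transformed. No normalized value of the 4 genes lay at that bound. Arrays 1 and 2, 3 and 4, and 5 and 6 of a genotype were averaged. Across probes on the linear scale, these partners correlated at 0.993 to 0.998, against 0.955 to 0.980 for other arrays of a genotype. On normalized log2 values the ranges overlapped, at 0.917 to 0.973 and 0.904 to 0.953. The dimmest 25% of probes by mean over all samples were left out, which kept all 4 genes. aap6 minus WT was tested by limma (version 3.58.1, R version 4.3.3) with lmFit and eBayes, adjusted over 2579 probes by Benjamini-Hochberg. The fit was also run on simulated data, drawn independently for each sample. Such data do not carry the shared deviations of same-numbered samples, so that run does not cover them.

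Deviations of same-numbered averaged samples from their genotype means correlated at 0.398 to 0.498 across probes. The main fit was unpaired, and an alternative fit took the samples as paired by number, with the pairs as a block. The labels give the array numbers but do not say that they mark pairs. Their use as pairs rests on these correlations in the data. The named genes were the 4 members, the 2 most alike probes of each, and further genes with their own probe from 5 pathway lists. Members and lists were chosen with earlier results of these data known. Alternatives were other scalings, floors and filters, 12 unaveraged arrays, blocks, another variance model and leaving out each array or averaged sample. The split by brightness and the block under other scalings were added after seeing the data. Sequences of the genes are not reported here.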

Additional observations from a re-analysis of the deposited data

Results flagged for a closer look

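A sample far from the others of its genotype was looked for in 20 groups of 6 arrays (5 genes, 2 genotypes, deposited and normalized values), where chance alone marks about 1 in 20. For AT-HF, WT array 1 stood apart on both scales, with a deposited intensity of 0.178 where the next WT array had 0.0969, and a normalized log2 intensity of -2.03 where the next had -2.92. Without that array the log2 change of AT-HF was 1.50 (limma adjusted p = 0.0068), where 103 of 2579 probes passed as higher. That array held the highest WT value, so leaving it out favours a larger change. Without its partner, WT array 2, the change was 1.11 and did not pass (limma adjusted p = 0.0852). For ETFQO, WT array 2 stood apart as deposited, at 0.120 where the next WT array had 0.0641. Without it the log2 change of ETFQO was 1.06 (limma adjusted p = 0.0379), where 125 of 2579 probes passed as higher. Again the highest WT value was left out. Without WT array 1 the change of ETFQO was 0.74 and did not pass (limma adjusted p = 0.265). The array that stood apart differed between the genes, and both belong to the same averaged sample.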

How the results depend on the processing

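The 226 called probes (147 higher, 79 lower) became 900 without normalization (880 and 20), 705 with median centring (200 and 505), 133 with zeros counted in the percentile that sets the floor (90 and 43), 776 with 12 arrays as samples and 1040 with their numbers as a block. The replicate block over averaged samples gave 437, or 1211 without normalization and 1085 with median centring, both added after seeing the data. Leave-outs gave 55 to 203: 69, 55 and 91 without aap6 arrays 1 and 2, 3 and 4, and 5 and 6, and 134 and 87 without WT arrays 1 and 2, and 3 and 4. Fewer samples remain there; the other causes were not tested.

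AT-HF stayed called in the 13 other settings (1.06 to 2.08), but in 14 of 18 leave-outs (1.11 to 1.50). AT3G23940 became called with median centring, with or without the replicate block (-0.77), and ran from -0.22 to 0.041 over the leave-outs, positive without aap6 arrays 1 and 2. APS4 became called with median centring, with or without that block (-0.85), and with 12 arrays, with or without a block (-0.92), and ran from -1.15 to -0.73 over the leave-outs. ETFQO became called in the same settings (0.98 and 0.92) and without normalization, with or without the block (1.71). With median centring 200 and 311 of 2579 probes passed as higher and 505 and 774 as lower, unblocked and blocked. With 12 arrays 368 and 484 passed as higher and 408 and 556 as lower. Without normalization 880 and 1161 passed as higher. Over the leave-outs ETFQO ran from 0.74 to 1.21. It was called without WT array 2, where 125 probes passed as higher, or WT arrays 1 and 2, where 105 did. The difference of ETFQO from the mean of AT-HF and AT3G23940 was 0.69 without normalization or with median centring, blocked or not, 0.14 with the floor at the 25th percentile, 0.17 with an offset, and 0.046 to 0.57 over the leave-outs. The 0.69 is the same in its settings by construction and includes the uneven shift with brightness. APS4 and ETFQO were not tested among the brighter 50% of probes. The median SD was 0.402 in the dimmest 25% of tested probes, which holds them, and 0.226 in the brightest, which holds AT3G23940.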
